A study of Mus musculus with 12 samples.

Results

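The spinous layer and the basal layer of mouse epidermis were compared among cells that did not retain a dilutable histone label. The comparison used 5 of the 12 arrays of the series. The 2 arrays titled as SL non-LRCs were set against the 3 titled as BL non-LRCs, and 18193 genes were measured on each, 1 probe set standing for each gene. SL, BL and LRC are read here as spinous layer, basal layer and label-retaining cell from knowledge of the study, since the labels give only the abbreviations. Per the labels, all mice carried the same alleles and had the same treatment, and the groups differ in the sorted fraction. The alleles were K5-tTA, in which the keratin 5 promoter drives the tetracycline transactivator, the tTA-responsive histone fusion pTRE-H2B-GFP, K14-CreER, a tamoxifen-inducible recombinase under the keratin 14 promoter, and the Rosa-tdTomato reporter. Doxycycline in the food at 1 g per kg for 2 weeks shut off the histone fusion, tamoxifen was given once at 75 mg per kg, and the mice were killed 1 week later in second telogen, the resting phase of the hair cycle. Flow cytometry separated the fractions from skin, the gates being not stated, and 5 ng of RNA per sample was amplified and labelled with biotin. Since no label ties a sample to an animal of its own, p-values here reflect the spread between samples alone. The remaining arrays are 2 SL LRC, 3 BL LRC and 2 GL samples, GL being read as granular layer.

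The epidermis renews itself from basal keratinocytes, which sit on a basement membrane through integrins and hemidesmosomes and express Krt5 and Krt14. A cell that leaves this layer withdraws from the cell cycle, lets go of the basement membrane and switches to Krt1 and Krt10 in the spinous layer. In the granular layer above, it makes the envelope proteins, lipids and proteases from which the cornified layer is built. The same interfollicular sheet is continuous with the infundibulum, isthmus, sebaceous gland and bulge of the hair follicle, whose keratinocytes carry their own keratins and transcription factors. Cells without histone label include those that divided often enough during the doxycycline weeks to dilute it. Cells that never made the histone fusion would lack the label as well. These were not told apart here from cells that had diluted it.

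In SL non-LRCs, some envelope, protease, junction and follicle-associated genes were higher and a few adhesion genes lower, while the keratins that define the layers hardly differed. Of 18193 genes, 212 rose and 71 fell in SL non-LRCs relative to BL non-LRCs by limma's moderated test with Benjamini-Hochberg adjustment at 0.05. These are 1.17% and 0.39% of the genes, 1.56% together, and they are the background against which the counts below are read. The gene lists were chosen with earlier results of these data known, so their counts describe the members and are not independent tests. The median difference over all genes was 0.03 on the log2 scale, and unadjusted p lay under 0.05 for 2130 genes. The median difference was 1.76 among the genes that rose and -1.30 among those that fell. In all 283 called genes the arrays of the groups did not overlap, as in 26.7% of all genes. All differences are log2 of SL non-LRC over BL non-LRC intensity with the moderated standard error, from 2 and 3 arrays.

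The arrays of both groups resembled each other closely. Across genes, log2 intensities correlated at r = 0.932 between the SL non-LRC arrays, at 0.927 to 0.93 among the BL non-LRC arrays and at 0.917 to 0.926 between the groups. Each array's background floor, the 95th percentile over 27 bacterial probe sets, was 22.8 to 36.9 intensity units, and 68.1% to 77.8% of genes lay above it. The bacterial hybridisation control BioB split the arrays: its mean was 473.3 and 524.4 units on the SL non-LRC arrays, against 516.8, 3522.6 and 3136.9 on BL non-LRC 1, 2 and 3. BL non-LRC 1 was also the one array of the 5 where Y-linked transcripts (Eif2s3y, Kdm5d, Uty) were below the floor, 0 of 3 against 3 of 3 elsewhere. BL LRC 1, the other BL array of low BioB signal (466.8 units), also had 0 of 3. In BL, low BioB signal and absent Y-linked signal thus coincide, and the fits below that use the array set cannot tell them apart. With the array set as a term in the model 244 genes were called, 169 of them shared with the 283. With BL non-LRC 1 as the only BL array, in the same set as both SL arrays, 181 were called (0.995% of genes, beside 1.34% with the term) and 128 shared. Without BL non-LRC 1 the figures were 254 and 202, and under each of these 3 settings all 283 differences kept their sign. In the fits that only leave out BL arrays the sign could not turn, because the arrays of the groups did not overlap for these genes. The median size of the 283 differences was 1.61 with the array-set term, against 1.62 without it. The Actb 3' minus 5' log2 difference, a measure of RNA integrity, was -0.039 and -0.095 on the SL non-LRC arrays. It was -0.125, -0.325 and -0.147 on the BL non-LRC arrays, so that for Actb both SL arrays lay above all BL arrays. For Gapdh the same measure was 0.84 and 1.019 on the SL non-LRC arrays. On the BL non-LRC arrays it was 0.957, 0.761 and 0.683, so that the groups overlapped. The part of RNA integrity in the results was not tested.

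**Figure D1:**
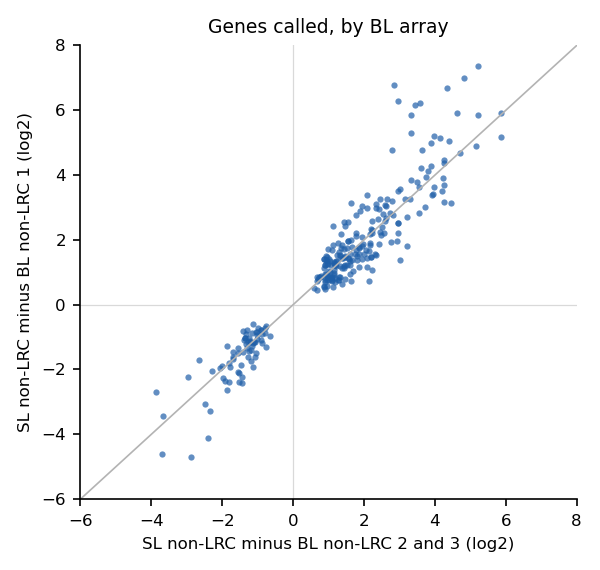
Log2 difference of the 283 called genes, with SL non-LRC set against BL non-LRC 1 on the vertical axis and against BL non-LRC 2 and 3 on the horizontal axis; each point is a gene and the line marks equal values. BL non-LRC 1 shares the low BioB signal of the SL arrays and BL non-LRC 2 and 3 do not, and all points lie in the quadrants of equal sign. Equal signs follow from the choice of genes, since the arrays of the groups did not overlap for any called gene.

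The number of calls depended on single arrays. Leaving out SL non-LRC 1 left 47 genes higher and 31 lower, and leaving out SL non-LRC 2 left 108 and 24. Without BL non-LRC 2 there were 143 and 25, and without BL non-LRC 3 there were 237 and 121. In the paragraphs below, calls that did not survive the loss of 1 array are named with that array, in most cases with the highest adjusted p.

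Most of the cornified envelope genes that were called were higher in SL non-LRCs, by more than 2 log2 units. Of 31 members of the granular and cornified envelope list, 6 rose and 1 fell, with a median of 1.80. Sprr1a encodes a small proline-rich protein that transglutaminases crosslink into the envelope. Its intensity was 19638 and 13773 on the SL non-LRC arrays, against 1145, 1118 and 2389 on the BL non-LRC arrays. Both SL values exceeded all BL values, and the difference was 3.50 ± 0.27 (adjusted p = 2.85e-06). Cdsn, the corneodesmosin that holds cornified cells together, measured 3338 and 1326 on the SL non-LRC arrays, against 53, 217 and 202 on the BL non-LRC arrays. Its difference was 3.99 ± 0.58 (adjusted p = 0.00158), with BL non-LRC 1 the lowest of the BL arrays. Asprv1, a protease that processes filaggrin, had 2182.5 and 1369 on the SL non-LRC arrays, against 241, 93.2 and 231.5 on the BL non-LRC arrays. It rose by 3.32 ± 0.42 (adjusted p = 0.000344), and again SL non-LRC 1 was the higher of the SL arrays. Ivl, the envelope scaffold involucrin, measured 1109.9 and 576 on the SL non-LRC arrays, against 159, 122 and 244 on the BL non-LRC arrays, a difference of 2.25 ± 0.45 (adjusted p = 0.0142).

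The other members split between higher, lower and undetected. Lce1b, a late envelope gene, was above the floor on both SL non-LRC arrays and on no BL non-LRC array, and was at least 6.22-fold higher (adjusted p = 0.0205). Tgm1, the membrane-bound keratinocyte transglutaminase, gave 226 and 151 on the SL non-LRC arrays, against 5.8, 3.0 and 51.4 on the BL non-LRC arrays, with 1 of the 3 BL arrays above the floor, and rose by 4.26 ± 0.98 (adjusted p = 0.0382), or by 2.34 (adjusted p = 0.0161) with each value below the floor raised to it. Tgm3, a soluble transglutaminase found in the upper epidermis and in hair, went the other way: it had 1178 and 891 on the SL non-LRC arrays, against 3404, 3468 and 1566 on the BL non-LRC arrays, a difference of -1.37 ± 0.30 (adjusted p = 0.0282). Lor and Flg, markers of the granular layer like Asprv1 and Ivl above, did not pass the test. Lor, the envelope protein loricrin, measured 1135 and 286 on the SL non-LRC arrays, against 208, 426 and 177 on the BL non-LRC arrays, so that 1 SL array lay within the BL range (adjusted p = 0.46). Flg, the filaggrin precursor, was above the floor on 1 of 2 SL arrays and on none of the BL arrays (adjusted p = 0.179). The members higher and lower were 9 and 1 with the array set as a term, 6 and 1 with BL non-LRC 1 as the only BL array, and 5 and 0 without that array, with 6, 5 and 5 of the 7 genes called above among them. Calls were lost for Cdsn without SL non-LRC 1 (adjusted p = 0.0648), Ivl without SL non-LRC 1 and BL non-LRC 2 (highest adjusted p = 0.262), Lce1b without SL non-LRC 1, SL non-LRC 2 and BL non-LRC 2 (highest adjusted p = 0.262), Tgm3 without SL non-LRC 1, SL non-LRC 2, BL non-LRC 1 and BL non-LRC 2 (highest adjusted p = 0.262) and Tgm1 without SL non-LRC 1, SL non-LRC 2, BL non-LRC 1 and BL non-LRC 2 (highest adjusted p = 0.298).

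The promoters of the called members were read for the AP-1 motif, the binding letters of Jun and Fos family factors, because AP-1 is known to act on envelope genes. The motif searched was TGANTCA on both strands, within the 250 bases before the start. It was present in 6.75% of 32841 RefSeq promoters (assembly GRCm38.p6), in 11% of 154 promoters of genes that rose and in 13.3% of 60 of genes that fell. In the envelope list it was present in 9 of 26 promoters, 34.6%. Among the 7 members called, Sprr1a and Ivl hold it and the other 5 have none of these letters in that window. Both sequences are shown 5' to 3' on the gene's strand, ending at the base before the start, with the motif in capitals. The Sprr1a window is chr3:92485882-92486131 on the minus strand, with matches 146 and 116 bases before the start. The Ivl window is chr3:92573736-92573985 on the minus strand, with 1 match 116 bases before the start. A match describes the letters and shows no binding.
Sprr1a: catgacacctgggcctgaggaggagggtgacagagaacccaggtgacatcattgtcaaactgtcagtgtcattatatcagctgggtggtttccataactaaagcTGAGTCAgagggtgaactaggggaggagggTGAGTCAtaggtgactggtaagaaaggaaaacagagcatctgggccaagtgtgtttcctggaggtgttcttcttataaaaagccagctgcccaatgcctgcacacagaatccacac
Ivl: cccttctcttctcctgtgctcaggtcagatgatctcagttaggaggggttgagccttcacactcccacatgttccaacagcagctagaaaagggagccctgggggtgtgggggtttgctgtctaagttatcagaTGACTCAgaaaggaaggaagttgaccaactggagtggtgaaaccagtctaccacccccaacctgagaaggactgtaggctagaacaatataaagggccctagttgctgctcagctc

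**Figure D2:**
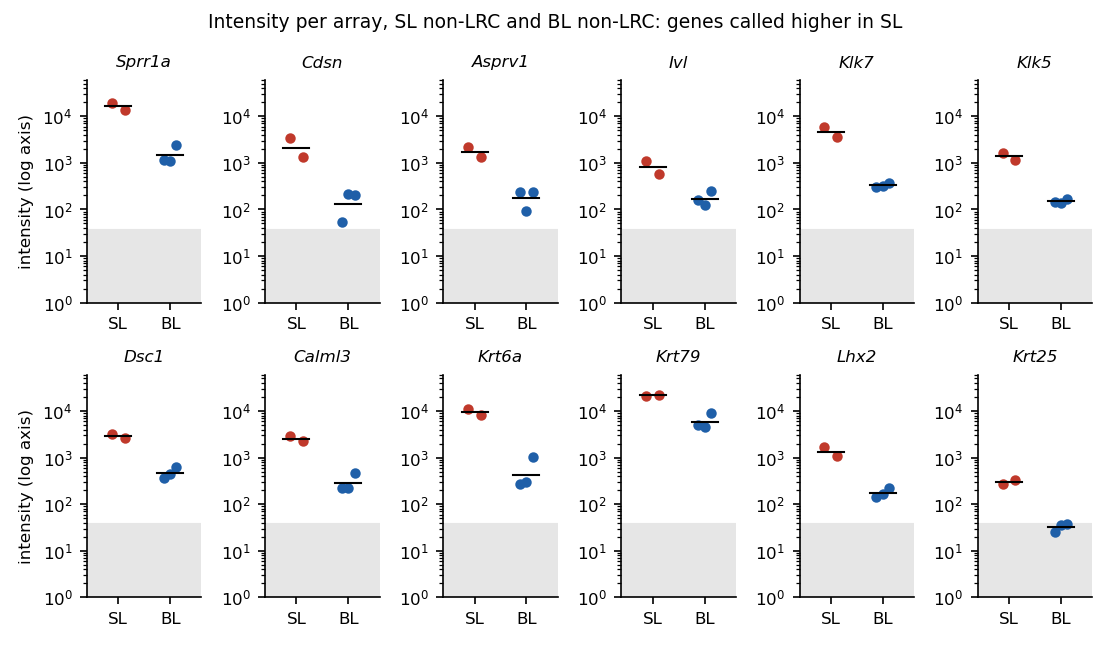
Intensity on each array (log axis) of 12 genes called higher, with SL non-LRC arrays in red on the left and BL non-LRC arrays in blue on the right; bars are geometric means and the grey band reaches to 36.9 units, the highest background floor of the 5 arrays. In each panel the points of the groups do not overlap, and for Krt25 the BL points lie at the edge of the grey band.

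Among early differentiation genes, some of the strongest differences sat beside keratins that did not pass the test. Of 21 members of the spinous list, 5 rose and 1 fell (median 0.35). Dsc1, the desmosomal cadherin of the suprabasal layers, measured 3173 and 2590.4 on the SL non-LRC arrays, against 374, 447 and 641 on the BL non-LRC arrays. The difference was 2.59 ± 0.28 (adjusted p = 9.71e-05). Calml3, a calmodulin-like protein of differentiating epithelia, had 2882 and 2235 on the SL non-LRC arrays, against 222, 226 and 478 on the BL non-LRC arrays, which is 3.14 ± 0.41 (adjusted p = 0.000564). Endou, Ly6g6c and Sbsn, the suprabasal secreted protein suprabasin, rose by 2.61, 2.23 and 1.21 (adjusted p = 0.000234, 0.000361 and 0.000616). Serpinb2, a serine protease inhibitor, was the member that fell, with 249.6 and 125 on the SL non-LRC arrays, against 1099, 792 and 523 on the BL non-LRC arrays and a difference of -2.12 ± 0.36 (adjusted p = 0.00445). These counts became 5 and 1 with the array set as a term, 5 and 1 with BL non-LRC 1 as the only BL array, and 5 and 1 without that array, each time with 6 of the 6 genes called above. The 5 genes that rose stayed called with each array left out, while the call was lost for Serpinb2 without SL non-LRC 2 (adjusted p = 0.103).

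The layer keratins differed little. Krt1 measured 14833 and 10399 on the SL non-LRC arrays, against 12291, 15604 and 12067 on the BL non-LRC arrays, and Krt10 measured 21769 and 20515 on the SL non-LRC arrays, against 18332, 21661 and 17805 on the BL non-LRC arrays. Their differences of -0.09 ± 0.18 (adjusted p = 0.915) and 0.14 ± 0.12 (adjusted p = 0.753) were within the spread of the arrays. Krt77, another suprabasal keratin, was higher on both SL arrays, with 19966 and 18805 on the SL non-LRC arrays, against 15307, 16596 and 13734 on the BL non-LRC arrays, and did not pass the test (adjusted p = 0.208). The basal keratins behaved the same way: Krt5 measured 18786 and 20454 on the SL non-LRC arrays, against 23228, 27266 and 19634 on the BL non-LRC arrays, and Krt14 22243 and 24108 on the SL non-LRC arrays, against 22704.5, 24743 and 22527 on the BL non-LRC arrays. Their differences were -0.24 ± 0.14 (adjusted p = 0.559) and -0.01 ± 0.11 (adjusted p = 0.986). Krt15 (-0.25, adjusted p = 0.564) and the basal transcription factor Trp63 (-0.21, adjusted p = 0.687) were not called either. None of these 6 keratins passed the test, whereas keratins of the follicle and of wounded skin, described below, did. In sorted bulk samples a smaller share of cells of a type and less RNA per cell cannot be told apart.

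Proteases and inhibitors of desquamation rose without exception among those called. Of 28 members of that list 6 rose and 0 fell (median 0.89). Klk7, a chymotrypsin-like kallikrein that cleaves corneodesmosin, had 5963 and 3665 on the SL non-LRC arrays, against 305, 320.4 and 373.5 on the BL non-LRC arrays. The BL arrays lay within a narrow range, and the difference was 3.82 ± 0.28 (adjusted p = 2.31e-06). Klk5, the trypsin-like kallikrein that activates Klk7, had 1659 and 1155 on the SL non-LRC arrays, against 144, 139 and 171 on the BL non-LRC arrays, a difference of 3.20 ± 0.28 (adjusted p = 1.38e-05). Cst6, the cathepsin inhibitor cystatin M/E, measured 26731 and 25024.5 on the SL non-LRC arrays, against 2484, 5615 and 6685 on the BL non-LRC arrays, a difference of 2.51 ± 0.29 (adjusted p = 0.000146). The lysosomal protease Ctsd rose by 0.95 ± 0.18 (adjusted p = 0.00889) and the membrane serine protease Tmprss4 by 1.19 ± 0.27 (adjusted p = 0.0306). Klk6 rose by 4.03 ± 0.96 (adjusted p = 0.0443), with 1 of 3 BL arrays above the floor, or by 3.30 (adjusted p = 0.00273) with values raised to the floor. Spink5, the kallikrein inhibitor LEKTI, measured 638 and 347 on the SL non-LRC arrays, against 27.7, 106 and 241 on the BL non-LRC arrays and did not pass the test (adjusted p = 0.073), but did with the array-set term (3.25, adjusted p = 0.0195). Counts higher and lower were 7 and 0 with the array set as a term, 5 and 0 with BL non-LRC 1 as the only BL array, and 4 and 0 without that array, with 6, 4 and 4 of the 6 genes called above among them. Leaving out 1 array removed the calls of Ctsd without SL non-LRC 1 and SL non-LRC 2 (highest adjusted p = 0.137), Tmprss4 without SL non-LRC 1, BL non-LRC 1 and BL non-LRC 2 (highest adjusted p = 0.394) and Klk6 without SL non-LRC 1, SL non-LRC 2, BL non-LRC 1 and BL non-LRC 2 (highest adjusted p = 0.342).

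Barrier lipid enzymes and junction proteins moved in the same direction in smaller numbers. Of 27 lipid barrier genes 3 rose and 0 fell (median 0.66). Acer1, an alkaline ceramidase, measured 4343 and 3765 on the SL non-LRC arrays, against 1576, 1943 and 2271 on the BL non-LRC arrays, a difference of 1.08 ± 0.18 (adjusted p = 0.00455). Alox12e, an epidermal lipoxygenase, rose by 1.59 ± 0.28 (adjusted p = 0.00548), and Sult2b1, which makes cholesterol sulfate, by 2.32 ± 0.48 (adjusted p = 0.0192). The list gave 3 and 0 with the array set as a term, 3 and 0 with BL non-LRC 1 as the only BL array, and 2 and 0 without that array, with 3, 3 and 2 of the 3 genes called above among them. Of 17 tight and gap junction genes 4 rose and 0 fell (median 0.57). Gjb2, the connexin 26 gap junction subunit, had 2193 and 981 on the SL non-LRC arrays, against 209, 186 and 347 on the BL non-LRC arrays, a difference of 2.62 ± 0.46 (adjusted p = 0.00558). Cldn4, a tight junction claudin, had 715 and 293 on the SL non-LRC arrays, against 6.3, 28.7 and 62.4 on the BL non-LRC arrays, with 1 of 3 BL arrays above the floor, and rose by 4.35 ± 0.83 (adjusted p = 0.0109), or by 3.56 (adjusted p = 0.000801) with values raised to the floor. Marveld2 and Tjp3, also of tight junctions, rose by 1.14 and 0.94 (adjusted p = 0.0442 and 0.0461). For junction genes the counts were 2 and 0 with the array set as a term, 2 and 0 with BL non-LRC 1 as the only BL array, and 3 and 0 without that array, with 2, 2 and 3 of the 4 genes called above among them. Dsc1 was the one called gene among 12 desmosome genes, whose median was 0.21. The loss of 1 array ended the calls of Acer1 without SL non-LRC 1 (adjusted p = 0.107), Alox12e without SL non-LRC 1 and SL non-LRC 2 (highest adjusted p = 0.0961), Sult2b1 without SL non-LRC 1, SL non-LRC 2, BL non-LRC 1 and BL non-LRC 2 (highest adjusted p = 0.265), Gjb2 without SL non-LRC 1 (adjusted p = 0.177), Cldn4 without SL non-LRC 1 (adjusted p = 0.206), Marveld2 without SL non-LRC 1, SL non-LRC 2, BL non-LRC 2 and BL non-LRC 3 (highest adjusted p = 0.34) and Tjp3 without SL non-LRC 1, SL non-LRC 2, BL non-LRC 1 and BL non-LRC 2 (highest adjusted p = 0.314).

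Transcription factors of keratinocyte differentiation formed the next group. Of 34 members 8 rose and 0 fell, with a median of only 0.24. Ovol1, a zinc finger repressor induced as keratinocytes leave the cell cycle, had 1285 and 1078 on the SL non-LRC arrays, against 362, 319 and 367 on the BL non-LRC arrays. It rose by 1.75 ± 0.24 (adjusted p = 0.000883). Grhl1, a grainyhead factor of desmosomal cadherin genes, had 3697 and 3120.4 on the SL non-LRC arrays, against 1873, 1243.5 and 1509 on the BL non-LRC arrays and rose by 1.16 ± 0.19 (adjusted p = 0.00337). Zfp750, a p63 target needed for terminal differentiation, had 2355 and 1515 on the SL non-LRC arrays, against 725, 408 and 705 on the BL non-LRC arrays and rose by 1.67 ± 0.30 (adjusted p = 0.00655). Dlx3, a homeobox factor of envelope and hair genes, was above the floor on 2 of 3 BL arrays and rose by 3.46 ± 0.74 (adjusted p = 0.0235). Gata6 (1.82, adjusted p = 0.0174), Cebpa (0.85, adjusted p = 0.032), Casz1 (0.76, adjusted p = 0.041) and the vitamin D receptor Vdr (0.77, adjusted p = 0.0489) also rose. Klf4, a barrier regulator, measured 11739.5 and 9545 on the SL non-LRC arrays, against 9368, 12347 and 9012 on the BL non-LRC arrays, with overlapping arrays (adjusted p = 0.942). The counts fell to 4 and 0 with the array set as a term, 3 and 0 with BL non-LRC 1 as the only BL array, and 7 and 0 without that array, with 4, 2 and 7 of the 8 genes called above among them. Not called with 1 array fewer were Grhl1 without SL non-LRC 1 (adjusted p = 0.0962), Zfp750 without SL non-LRC 1 (adjusted p = 0.171), Gata6 without SL non-LRC 1, SL non-LRC 2 and BL non-LRC 2 (highest adjusted p = 0.16), Dlx3 without SL non-LRC 1 and BL non-LRC 1 (highest adjusted p = 0.356), Cebpa without SL non-LRC 1, SL non-LRC 2 and BL non-LRC 2 (highest adjusted p = 0.251), Casz1 without SL non-LRC 1, SL non-LRC 2, BL non-LRC 2 and BL non-LRC 3 (highest adjusted p = 0.288) and Vdr without SL non-LRC 1, SL non-LRC 2 and BL non-LRC 2 (highest adjusted p = 0.298).

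Notch signalling genes, which drive the spinous program in mouse epidermis, differed little. Of 28 members 1 rose and 0 fell (median 0.14). The one that rose was Nrarp, a Notch-induced feedback inhibitor, with 7908 and 6736 on the SL non-LRC arrays, against 3116, 3291 and 4608 on the BL non-LRC arrays and a difference of 1.01 ± 0.24 (adjusted p = 0.0396). The call was lost for Nrarp without SL non-LRC 1, SL non-LRC 2, BL non-LRC 1 and BL non-LRC 2 (highest adjusted p = 0.321). Notch3 measured 2145 and 2054 on the SL non-LRC arrays, against 1219.7, 1409.8 and 997 on the BL non-LRC arrays, non-overlapping but not past the test (adjusted p = 0.143), and Notch1 measured 3785 and 4348 on the SL non-LRC arrays, against 2695, 4784.5 and 5124.5 on the BL non-LRC arrays, with BL non-LRC 1 the lowest of the 5 arrays (adjusted p = 0.996). The list counts were 2 and 0 with the array set as a term, 0 and 0 with BL non-LRC 1 as the only BL array, and 0 and 0 without that array.

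Most genes listed for the upper hair follicle were higher in SL non-LRCs as well. As the list was written with earlier results of these data known, its share of calls is no independent evidence of follicle cells. Of 15 infundibulum and isthmus genes 9 rose and 0 fell, with a median of 1.56. Krt79, a keratin of the infundibulum and sebaceous duct, had 21361 and 21776 on the SL non-LRC arrays, against 4922, 4481 and 8887 on the BL non-LRC arrays. It rose by 1.89 ± 0.23 (adjusted p = 0.000211). Teddm3 had 2184 and 1125 on the SL non-LRC arrays, against 46.8, 72.1 and 76.3 on the BL non-LRC arrays, a difference of 4.62 ± 0.48 (adjusted p = 7.72e-05). Krt17, a keratin of the follicle and of wounded skin, rose by 1.57 ± 0.21 (adjusted p = 0.000742). Atp6v1c2, a proton pump subunit, rose by 2.48 ± 0.36 (adjusted p = 0.00129), and Plet1, a surface marker of the isthmus, by 1.08 ± 0.22 (adjusted p = 0.0176). Gata6, Cst6, Defb6 (1.56) and the water and glycerol channel Aqp3 (0.98) complete the 9, so that 2 of them were counted in the groups above. Summed over the list, intensity was 139081 and 129452 on the SL non-LRC arrays, against 50101, 60891 and 64992 on the BL non-LRC arrays. The counts were 8 and 0 with the array set as a term, 7 and 0 with BL non-LRC 1 as the only BL array, and 7 and 0 without that array, with 8, 7 and 7 of the 9 genes called above among them. With 1 array left out, calls ended for Plet1 without SL non-LRC 1, SL non-LRC 2, BL non-LRC 1 and BL non-LRC 2 (highest adjusted p = 0.25), Gata6 without SL non-LRC 1, SL non-LRC 2 and BL non-LRC 2 (highest adjusted p = 0.16), Defb6 without SL non-LRC 1, SL non-LRC 2 and BL non-LRC 1 (highest adjusted p = 0.234) and Aqp3 without SL non-LRC 1, SL non-LRC 2, BL non-LRC 2 and BL non-LRC 3 (highest adjusted p = 0.415).

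Some inner root sheath, shaft and bulge genes were higher too, at low intensity in the sheath group. Of 19 inner root sheath and shaft genes 7 rose and 0 fell (median 1.78). Krt25, an inner root sheath keratin, had 275 and 332.5 on the SL non-LRC arrays, against 25.6, 35.7 and 38.5 on the BL non-LRC arrays, with 1 of 3 BL arrays above the floor, and rose by 3.21 ± 0.57 (adjusted p = 0.00655). Krt71, its type II partner keratin, rose by 3.47 ± 0.62 (adjusted p = 0.00655), or by 2.79 with values raised to the floor. Krt27 and Krt28 were never above the floor in BL non-LRCs and were at least 5.06-fold and at least 3.93-fold higher (adjusted p = 0.0183 and 0.037 on the values as deposited). With values raised to the floor the adjusted p was 0.0666 for Krt27, which is then not called, and 0.0232 for Krt28. Krt27 had 62.3 and 319 on the SL non-LRC arrays, against 2.3, 1.8 and 3.2 on the BL non-LRC arrays, so that SL non-LRC 2 lay well above SL non-LRC 1. The cortex keratin Krt35 (5.12, adjusted p = 0.0382), the hair shaft regulator Foxn1 (1.42, adjusted p = 0.0154) and Hoxc13 (1.78, adjusted p = 0.0463) complete the 7. Krt35 was not called with values raised to the floor (1.88, adjusted p = 0.0533). These counts were sensitive to the array set: 1 and 0 with the array set as a term, 4 and 0 with BL non-LRC 1 as the only BL array, and 4 and 0 without that array, with 1, 4 and 4 of the 7 genes called above among them. The summed intensity was 3448 and 3216 on the SL non-LRC arrays, against 1249, 1368 and 1128 on the BL non-LRC arrays. Calls were lost for Krt25 without SL non-LRC 1 and SL non-LRC 2 (highest adjusted p = 0.0944), Krt71 without SL non-LRC 2 (adjusted p = 0.126), Krt27 without SL non-LRC 1, SL non-LRC 2 and BL non-LRC 2 (highest adjusted p = 0.256), Krt28 without each array in turn (highest adjusted p = 0.314), Krt35 without SL non-LRC 1, SL non-LRC 2, BL non-LRC 1 and BL non-LRC 2 (highest adjusted p = 0.274), Foxn1 without SL non-LRC 1 (adjusted p = 0.288) and Hoxc13 without SL non-LRC 1, SL non-LRC 2, BL non-LRC 1 and BL non-LRC 3 (highest adjusted p = 0.339).

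Of 17 bulge genes 5 rose and 0 fell (median 0.77), with 13 above 0 and 4 below. The 12 not called included the bulge markers Cd34, Lgr5 and Krt24. Lhx2, a LIM homeobox factor of follicle stem cells, had 1663 and 1075 on the SL non-LRC arrays, against 144.5, 168 and 224 on the BL non-LRC arrays. It rose by 2.92 ± 0.28 (adjusted p = 2.26e-05), with every SL value above every BL value. Sox9, a factor of the outer root sheath and bulge, had 6591 and 6081 on the SL non-LRC arrays, against 1701, 2326.5 and 2973 on the BL non-LRC arrays and rose by 1.48 ± 0.21 (adjusted p = 0.00107). Foxc1 and Tbx1 rose by 1.69 and 1.70 (adjusted p = 0.0203 and 0.037), and Vdr, counted above, is the fifth. The counts were 3 and 1 with the array set as a term, 3 and 0 with BL non-LRC 1 as the only BL array, and 3 and 0 without that array, each time with 3 of the 5 genes called above. Leaving out 1 array removed the calls of Foxc1 without SL non-LRC 1, SL non-LRC 2, BL non-LRC 1 and BL non-LRC 2 (highest adjusted p = 0.265) and Tbx1 without SL non-LRC 1, SL non-LRC 2, BL non-LRC 1 and BL non-LRC 2 (highest adjusted p = 0.247). Of 17 sebaceous gland genes none was called, 12 lying above 0 with a median of 0.36, and the summed intensity was 30572 and 53389 on the SL non-LRC arrays, against 23139, 26076 and 74505 on the BL non-LRC arrays. BL non-LRC 3 held the highest sebaceous sum of the 5 arrays, and the median without BL non-LRC 1 was -0.18. The part that follicle cells in the sorted fractions had in these results was not tested.

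**Figure D3:**
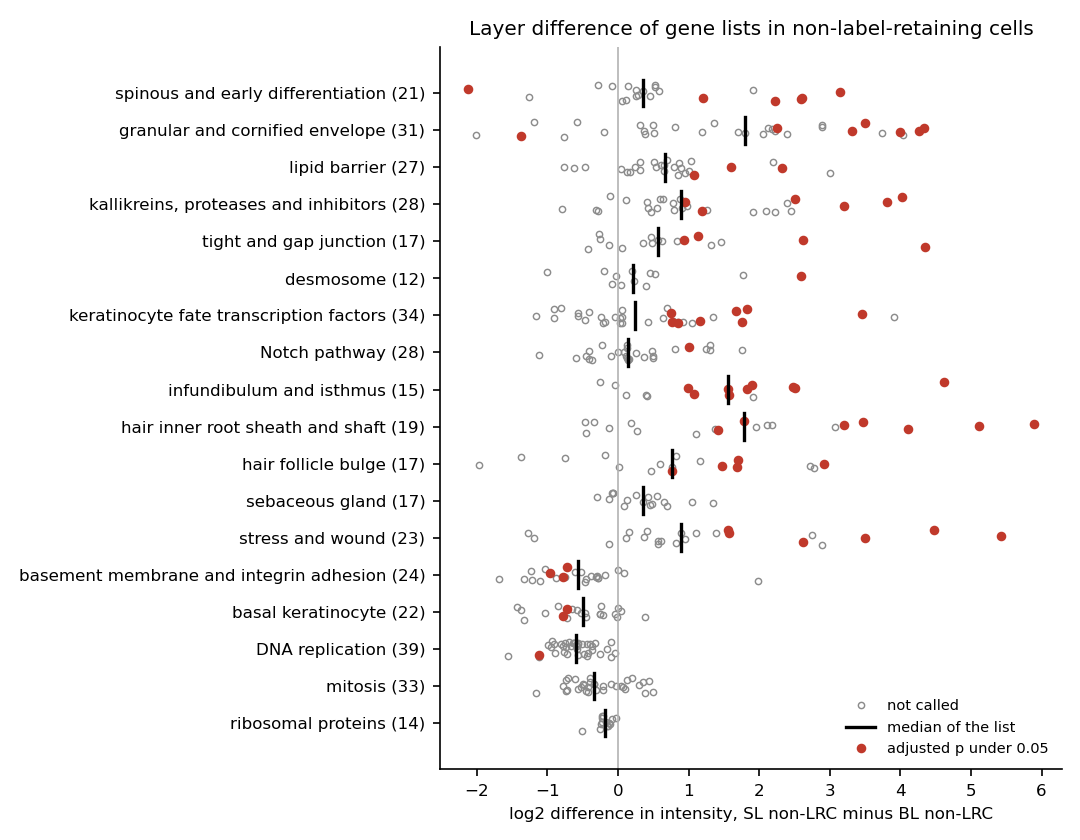
Log2 difference, SL non-LRC minus BL non-LRC, of every measured member of 18 gene lists; each circle is a gene, filled red where adjusted p is under 0.05, the black bar is the list's median and the number of genes stands in brackets. Red points lie mostly to the right in the differentiation and follicle groups, except for Serpinb2 in the spinous list and Tgm3 in the envelope list, and to the left in the adhesion groups, and none lies in the sebaceous, mitosis and ribosomal lists.

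Some genes of stressed and wounded epidermis were also higher. Of 23 stress and wound genes 6 rose and 0 fell (median 0.89). Krt6a, a keratin of the follicle companion layer that wounds induce in epidermis, had 11092 and 8394 on the SL non-LRC arrays, against 273, 296 and 1006 on the BL non-LRC arrays. The BL non-LRC 3 value was the highest BL value and still far below both SL values, and the difference was 4.48 ± 0.44 (adjusted p = 3.36e-05). Krt75, a companion layer keratin, was above the floor on 1 of 3 BL arrays and rose by 5.42 ± 0.98 (adjusted p = 0.00747), or by 3.41 (adjusted p = 0.00117) with values raised to the floor. Krt17, Gjb2, Defb6 and Sprr1a, named in other groups, are the other 4. Krt16 measured 476 and 389.8 on the SL non-LRC arrays, against 112, 225 and 177 on the BL non-LRC arrays, adjusted p = 0.0534. Summed intensity was 83192 and 72596 on the SL non-LRC arrays, against 22877, 27878 and 29891 on the BL non-LRC arrays. The counts were 7 and 0 with the array set as a term, 7 and 0 with BL non-LRC 1 as the only BL array, and 5 and 0 without that array, with 6, 6 and 5 of the 6 genes called above among them. The call was lost for Krt75 without SL non-LRC 1 and SL non-LRC 2 (highest adjusted p = 0.133).

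Immediate early genes, which many stimuli induce, gave 3 genes higher and 0 lower of 24 (median 0.34). Jun had 11510.2 and 9954 on the SL non-LRC arrays, against 6289, 5509 and 5144 on the BL non-LRC arrays and rose by 0.93 ± 0.17 (adjusted p = 0.00738). The mRNA decay factor Zfp36 and the transcription factor Egr2 rose by 0.82 and 1.26 (adjusted p = 0.0142 and 0.0282). The counts were 1 and 0 with the array set as a term, 0 and 0 with BL non-LRC 1 as the only BL array, and 2 and 0 without that array, with 1, 0 and 2 of the 3 genes called above among them. The loss of 1 array ended the calls of Jun without SL non-LRC 1 (adjusted p = 0.152), Zfp36 without SL non-LRC 1, SL non-LRC 2 and BL non-LRC 2 (highest adjusted p = 0.18) and Egr2 without SL non-LRC 1, SL non-LRC 2, BL non-LRC 1 and BL non-LRC 2 (highest adjusted p = 0.196).

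Many of the largest fitted increases were in genes near or below the floor in BL non-LRCs, where the fitted size depends on background values. Wfdc18, a whey acidic protein family member, had 3478 and 2003 on the SL non-LRC arrays, against 16.1, 19.8 and 256 on the BL non-LRC arrays, with 1 of 3 BL arrays above the floor, and rose by 5.93 ± 0.92 (adjusted p = 0.00232). The retinoic acid synthesising enzyme Aldh1a2 was at least 6.67-fold higher, the late envelope gene Lce1a2 at least 9.25-fold, Trex2 at least 3.39-fold and Ccser1 at least 2.09-fold (adjusted p = 0.00655, 0.00524, 0.0346 and 0.00904 on the values as deposited). With values raised to the floor, Trex2 and Ccser1 were not called (adjusted p = 0.11 and 0.291), while Aldh1a2 and Lce1a2 were (adjusted p = 0.00212 and 0.00282). Crct1, a cysteine-rich protein encoded in the epidermal differentiation complex, had 612 and 386 on the SL non-LRC arrays, against 8.1, 7.3 and 54 on the BL non-LRC arrays, 1 of 3 BL arrays being above the floor, and rose by 5.04 ± 0.86 (adjusted p = 0.00462), or by 3.71 (adjusted p = 0.00269) with values raised to the floor. Pdzrn3, a ubiquitin ligase with PDZ domains, had 5802 and 4618 on the SL non-LRC arrays, against 69.2, 285 and 669 on the BL non-LRC arrays, all above the floor, and rose by 4.45 ± 0.69 (adjusted p = 0.00232). Krt27, Krt75, Krt35, Krt6a and Teddm3 complete the 12 largest. Crabp2, a cellular retinoic acid binding protein, had 6782 and 4812 on the SL non-LRC arrays, against 546, 405 and 349.8 on the BL non-LRC arrays and rose by 3.75 ± 0.24 (adjusted p = 4.51e-07). Slc43a2, a neutral amino acid transporter, was the one called of 16 amino acid transporter genes, with 7658 and 6350.2 on the SL non-LRC arrays, against 976.5, 1325 and 834 on the BL non-LRC arrays and a difference of 2.77 ± 0.26 (adjusted p = 2.26e-05). Not called with 1 array fewer were Wfdc18 without SL non-LRC 1 (adjusted p = 0.0648), Aldh1a2 without SL non-LRC 1 and SL non-LRC 2 (highest adjusted p = 0.123), Lce1a2 without SL non-LRC 1 (adjusted p = 0.151), Trex2 without each array in turn (highest adjusted p = 0.285), Ccser1 without SL non-LRC 1 (adjusted p = 0.173), Crct1 without SL non-LRC 1 (adjusted p = 0.102) and Pdzrn3 without SL non-LRC 1 (adjusted p = 0.0558).

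A few basal adhesion genes were lower, by modest amounts. Of 24 basement membrane and integrin genes 3 fell and 0 rose, with 22 below 0 and a median of -0.57, beside 47.9% of all genes below 0. Lama3, a chain of laminin 332 that anchors basal cells, had 2285 and 2448 on the SL non-LRC arrays, against 5013, 4185 and 4610.2 on the BL non-LRC arrays. It fell, with a difference of -0.96 ± 0.17 (adjusted p = 0.00524). Itga6, the hemidesmosomal integrin subunit, had 6280.0 and 6347 on the SL non-LRC arrays, against 9959, 12232.5 and 9255 on the BL non-LRC arrays, a difference of -0.72 ± 0.14 (adjusted p = 0.0156). Col17a1, the hemidesmosomal collagen, had 11754 and 10117 on the SL non-LRC arrays, against 17933, 23021 and 15711 on the BL non-LRC arrays, a difference of -0.77 ± 0.16 (adjusted p = 0.0203). The SL values of these 3 genes lay below all BL values. Itgb4, the partner of Itga6, measured 2891 and 2381 on the SL non-LRC arrays, against 4791, 3722 and 2632 on the BL non-LRC arrays, with SL non-LRC 1 above BL non-LRC 3 (adjusted p = 0.489). Itga3, another laminin receptor subunit, had 969 and 692 on the SL non-LRC arrays, against 2446, 2619.9 and 1349.8 on the BL non-LRC arrays and missed the threshold (adjusted p = 0.0504). The counts were 0 and 2 with the array set as a term, 0 and 2 with BL non-LRC 1 as the only BL array, and 0 and 3 without that array, with 1, 1 and 3 of the 3 genes called above among them. In the basal keratinocyte list, Itga6 and Col17a1 were the called genes of 22, and the median was -0.49. Its counts were 0 and 3 with the array set as a term, 0 and 2 with BL non-LRC 1 as the only BL array, and 0 and 2 without that array, with 0, 0 and 2 of the 2 genes called above among them. Itga6 and Col17a1 were not called with the array set as a term (adjusted p = 0.0559 and 0.078) or with BL non-LRC 1 as the only BL array (adjusted p = 0.109 and 0.0925), and Lama3 was called in both fits (adjusted p = 0.012 and 0.0272). With the mean of all probe sets of a gene, Lama3 and Itga6 were not called (adjusted p = 0.607 and 0.0513). With 1 array left out, calls ended for Lama3 without SL non-LRC 1 (adjusted p = 0.101), Itga6 without SL non-LRC 1, SL non-LRC 2 and BL non-LRC 2 (highest adjusted p = 0.158) and Col17a1 without SL non-LRC 1, SL non-LRC 2 and BL non-LRC 2 (highest adjusted p = 0.224).

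**Figure D4:**
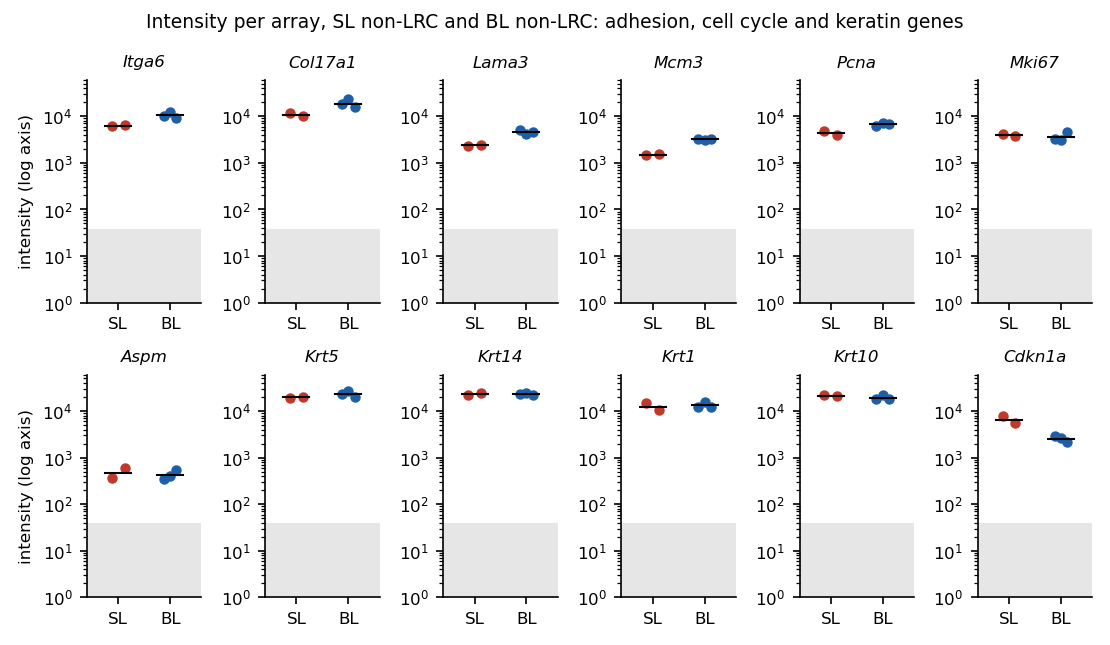
Intensity on each array (log axis) of adhesion, replication, mitosis and keratin genes and of Cdkn1a, with SL non-LRC arrays in red on the left and BL non-LRC arrays in blue on the right; bars are geometric means and the grey band reaches to 36.9 units. Itga6, Col17a1, Lama3 and Mcm3 sit lower in SL, Cdkn1a sits higher, and Krt14 and Mki67 have overlapping points.

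The largest decreases included genes that were at background in SL non-LRCs. Dab1, an adaptor of reelin signalling, was at least 5.86-fold lower, the neuropeptide gene Cort at least 5.19-fold, Gm5914 at least 3.49-fold, Zdhhc15 by 3.14-fold or more and Zc2hc1c by 2.67-fold or more (adjusted p = 0.0145, 0.0203, 0.0417, 0.047 and 0.00483 on the values as deposited). With values raised to the floor, Gm5914, Zdhhc15 and Zc2hc1c were not called (adjusted p = 0.0717, 0.0682 and 0.229), while Dab1 and Cort were (adjusted p = 0.0463 and 0.015). Ntrk2, the neurotrophin receptor TrkB, had 631 and 436 on the SL non-LRC arrays, against 4407.5, 1918 and 4447 on the BL non-LRC arrays, all above the floor, a difference of -2.67 ± 0.54 (adjusted p = 0.0156). Of its 7 other probe sets 3 had the same sign, with differences of -1.74 to 0.78. Igfbp3, a secreted binder of insulin-like growth factors, had 202.5 and 22 on the SL non-LRC arrays, against 1164.5, 583 and 209.9 on the BL non-LRC arrays, with 1 of 2 SL arrays above the floor, a difference of -2.97 ± 0.69 (adjusted p = 0.0385). Plod1, a collagen lysyl hydroxylase, had 145 and 61 on the SL non-LRC arrays, against 908, 549 and 411.5 on the BL non-LRC arrays, a difference of -2.65 ± 0.44 (adjusted p = 0.00412), while its other probe set gave 0.93. Wdr76 (-2.34), Zfp41 (-2.22), Appbp2os (-2.07) and Serpinb2 complete the 12 largest. With the mean of all probe sets of a gene, Dab1, Igfbp3 and Appbp2os were not called (adjusted p = 0.518, 0.0936 and 0.221). Cort and Gm5914 stayed called with that mean (adjusted p = 0.0154 and 0.022). Calls were lost for Dab1 without SL non-LRC 1, SL non-LRC 2, BL non-LRC 1 and BL non-LRC 2 (highest adjusted p = 0.136), Cort without SL non-LRC 1, BL non-LRC 2 and BL non-LRC 3 (highest adjusted p = 0.26), Gm5914 without each array in turn (highest adjusted p = 0.236), Zdhhc15 without each array in turn (highest adjusted p = 0.298), Zc2hc1c without SL non-LRC 1 (adjusted p = 0.0536), Ntrk2 without SL non-LRC 1, SL non-LRC 2 and BL non-LRC 1 (highest adjusted p = 0.172), Igfbp3 without SL non-LRC 2, BL non-LRC 1 and BL non-LRC 2 (highest adjusted p = 0.474), Plod1 without SL non-LRC 2 (adjusted p = 0.0959), Wdr76 without SL non-LRC 2, BL non-LRC 2 and BL non-LRC 3 (highest adjusted p = 0.37), Zfp41 without SL non-LRC 1, BL non-LRC 1, BL non-LRC 2 and BL non-LRC 3 (highest adjusted p = 0.386) and Appbp2os without SL non-LRC 1, BL non-LRC 1 and BL non-LRC 3 (highest adjusted p = 0.287).

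Growth factor signalling genes contributed few calls. Among 33 BMP, TGF beta and Wnt genes 2 fell, the matrix protein Tgfbi (-0.90 ± 0.20 (adjusted p = 0.0347)) and the receptor Tgfbr2 (-0.86 ± 0.20 (adjusted p = 0.0401)), and 0 rose (median -0.28). Neither was called with the array set as a term (adjusted p = 0.179 and 0.0792). Among 22 EGF receptor genes the feedback inhibitor Spred2 fell, with a difference of -1.04 ± 0.25 (adjusted p = 0.0454), and was not called with that term (adjusted p = 0.199). Leaving out 1 array removed the calls of Tgfbi without SL non-LRC 1, SL non-LRC 2 and BL non-LRC 2 (highest adjusted p = 0.31), Tgfbr2 without each array in turn (highest adjusted p = 0.279) and Spred2 without each array in turn (highest adjusted p = 0.251).

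Most cell cycle genes did not pass the test. All 39 measured DNA replication genes lay below 0 in SL non-LRCs, where 47.9% of all genes do, with a median of -0.60, but only 1 passed the test. That gene was Mcm3, a subunit of the replicative helicase, with 1466 and 1519.7 on the SL non-LRC arrays, against 3298, 3067 and 3333 on the BL non-LRC arrays and a difference of -1.11 ± 0.19 (adjusted p = 0.0046). Its call was lost without SL non-LRC 1, where the difference was -1.09. It was not called on its probe set outside the x and s classes, which can match more than 1 transcript (-0.48, adjusted p = 0.638), or with BL non-LRC 1 as the only BL array (adjusted p = 0.0607). Pcna, the polymerase clamp, had 4784 and 4056 on the SL non-LRC arrays, against 6094, 7099 and 6891 on the BL non-LRC arrays, non-overlapping and not past the test (-0.60 ± 0.17 (adjusted p = 0.0946)). Summed over the list, intensity was 35254 and 36963 on the SL non-LRC arrays, against 56187, 50987 and 54208 on the BL non-LRC arrays. Of 33 mitosis genes none was called and 23 lay below 0 (median -0.34). Mki67, the proliferation marker, had 4079.9 and 3737 on the SL non-LRC arrays, against 3314, 3162 and 4578 on the BL non-LRC arrays, with BL non-LRC 3 above both SL arrays, and a difference of 0.10 ± 0.23 (adjusted p = 0.925). Aspm, a spindle pole protein, had 362 and 587 on the SL non-LRC arrays, against 343, 402 and 549.5 on the BL non-LRC arrays, a difference of 0.12 ± 0.41 (adjusted p = 0.95), and its 4 other probe sets all had the opposite sign. Summed mitosis intensity was 17902 and 18102 on the SL non-LRC arrays, against 18180.0, 20382 and 27124 on the BL non-LRC arrays. The median of the mitosis list was -0.15 with the array-set term and -0.07 with BL non-LRC 1 as the only BL array, against -0.61 and -0.50 for the replication list.

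The replication promoters were searched for the E2F letters TTTCCCGC and TTTGGCGC on both strands in the same window, as E2F factors govern S phase genes. They were present in 7 of 32 promoters of the list, 21.9%, beside 1.3% of all promoters, and the AP-1 letters were in 0 of these 32. The Mcm3 promoter holds neither E2F string in that window.

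Cell cycle exit showed 1 gene in each direction among 33. Cdkn1a, the p21 inhibitor of cyclin-dependent kinases, had 7826 and 5508 on the SL non-LRC arrays, against 2865.5, 2619 and 2214.5 on the BL non-LRC arrays, a difference of 1.36 ± 0.18 (adjusted p = 0.000517). Ccnd1, cyclin D1, had 1819.5 and 1532 on the SL non-LRC arrays, against 2540.1, 3846.5 and 3426 on the BL non-LRC arrays, a difference of -0.95 ± 0.22 (adjusted p = 0.0396). Cdkn1a stayed called with the array-set term and with each array left out, whereas Ccnd1 was not called with that term (adjusted p = 0.215), and lost its call in fits without single arrays, namely for Ccnd1 without SL non-LRC 1, SL non-LRC 2, BL non-LRC 2 and BL non-LRC 3 (highest adjusted p = 0.298).

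Lists of general metabolism held few calls. Of 31 oxidative phosphorylation, 15 glycolysis and 14 ribosomal protein genes none was called, and the medians were 0.01, -0.10 and -0.19. All 14 ribosomal protein genes lay below 0, with a median of -0.06 with the array-set term and -0.21 after centring each array on its median. Among 19 cholesterol synthesis genes Dhcr7, the final enzyme of the pathway, rose by 0.76 ± 0.17 (adjusted p = 0.037) and was not called with the array-set term (adjusted p = 0.17). The call was lost for Dhcr7 without SL non-LRC 1, SL non-LRC 2, BL non-LRC 2 and BL non-LRC 3 (highest adjusted p = 0.296). Dlx1 and Slc1a3, known from the study as markers of its basal populations, had adjusted p values of 0.51 and 0.813, with 46.9 and 8.4 on the SL non-LRC arrays, against 50.7, 101 and 36.7 on the BL non-LRC arrays for Dlx1 and 177 and 223 on the SL non-LRC arrays, against 185, 333 and 435 on the BL non-LRC arrays for Slc1a3.

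Markers of other skin cells were measured beside these groups. Of 16 Langerhans and myeloid genes 1 rose, and 14 lay above 0 with a median of 1.06. That gene was Epcam, an adhesion molecule that follicle keratinocytes also express, with 11684 and 9667 on the SL non-LRC arrays, against 4584, 4755 and 4557 on the BL non-LRC arrays and a difference of 1.20 ± 0.15 (adjusted p = 0.000295). The summed intensity of this list was 22066 and 13801 on the SL non-LRC arrays, against 8421, 6715 and 7810.0 on the BL non-LRC arrays, so that both SL arrays exceeded all BL arrays. Epcam alone made up most of the sum on each array, so the sums do not measure Langerhans cells alone. The other members, Cd207, H2-Aa and Cd74 among them, were not called. Of 12 melanocyte genes none was called, and their sums were 1459 and 1532 on the SL non-LRC arrays, against 956, 807 and 854 on the BL non-LRC arrays. None of 12 T cell genes was called, with sums of 5760.0 and 3576 on the SL non-LRC arrays, against 8430.0, 9300.0 and 5186 on the BL non-LRC arrays. None of 15 fibroblast genes was called, with sums of 6345 and 3713 on the SL non-LRC arrays, against 10827, 9074 and 5642 on the BL non-LRC arrays. None of 16 endothelial, muscle and Merkel cell genes was called, with sums of 667 and 507 on the SL non-LRC arrays, against 438, 444 and 517 on the BL non-LRC arrays, and the endothelial gene Pecam1 was below the floor on all 5 arrays. The part of these cells in the results was not tested.

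The same layer step was measured on separate arrays in label-retaining cells. There 256 genes rose and 260 fell in SL LRCs relative to BL LRCs, 1.41% and 1.43% of the genes and 2.84% together. Lower genes were 25.1% of the calls in non-LRCs and 50.4% in LRCs. Centring each array on its median turned the LRC calls to 295 higher and 198 lower. Of the 212 genes higher in SL non-LRCs 111 were also higher in SL LRCs, which is 52.4% of the non-LRC list and 43.4% of the LRC list. Of the 71 lower genes 28 were lower in both, 39.4% of the non-LRC list and 10.8% of the LRC list. Of all 283 genes called in non-LRCs, 267 (94.3%) had the same sign in LRCs and 16 the opposite one. Testing the difference of the layer steps directly, limma called 0 genes, with a smallest adjusted p of 0.0948 and 1292 genes at an unadjusted p under 0.05, 98 of them among the 283. Those 283 genes were picked by their non-LRC step, which is part of the tested difference. Selection thus favours small p values of this test among them.

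The replication and mitosis lists stood further below 0 in LRCs. Of the 39 replication genes 23 fell in LRCs against 1 in non-LRCs, with medians of -0.60 in non-LRCs and -1.37 in LRCs. For the 33 mitosis genes the medians were -0.34 in non-LRCs and -0.96 in LRCs, with 0 and 3 genes lower. All 39 replication genes and 29 of the 33 mitosis genes lay below 0 in LRCs, where 51.1% of all genes do. Mcm5, another helicase subunit, had 2938 and 2478 on the SL non-LRC arrays, against 3427, 4013 and 4785 on the BL non-LRC arrays, a difference of -0.58 ± 0.21 (adjusted p = 0.246). In LRCs it had 816 and 797 on the SL LRC arrays, against 4187.5, 3854 and 4711 on the BL LRC arrays, a difference of -2.39 ± 0.21 (adjusted p = 3.49e-05). The layer steps of Mcm5 differed by 1.81 ± 0.30 (unadjusted p = 1.56e-05, adjusted p = 0.0948). For Mki67 the step was -1.15 ± 0.23 (adjusted p = 0.0114) in LRCs, and the steps differed by 1.25 ± 0.33 (unadjusted p = 0.00144, adjusted p = 0.443). In SL the non-LRC and LRC arrays coincide with the low and high BioB sets, so in that layer array set and label cannot be told apart.

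Some actin genes had layer differences of opposite sign in non-LRCs and LRCs. Of 26 actin cytoskeleton and tropomyosin genes 4 rose in SL non-LRCs and 0 fell, with a median of 0.09. Tpm1, a tropomyosin that stabilises actin filaments, had 11156 and 9732 on the SL non-LRC arrays, against 5088, 3909 and 2700.2 on the BL non-LRC arrays, a difference of 1.47 ± 0.21 (adjusted p = 0.00129). In LRCs it had 3714 and 3028 on the SL LRC arrays, against 4603, 3837 and 3676 on the BL LRC arrays, a difference of -0.26 ± 0.21 (adjusted p = 0.703). Tpm2, another tropomyosin, had 6104 and 6879.8 on the SL non-LRC arrays, against 3454, 2517 and 3317 on the BL non-LRC arrays, a difference of 1.08 ± 0.21 (adjusted p = 0.0135). It was the 1 gene called in opposite directions, since in LRCs it had 638 and 863 on the SL arrays, against 1687, 1411 and 1091 on the BL arrays, a difference of -0.89 ± 0.21 (adjusted p = 0.0317). Pfn2, a profilin that supplies actin monomers, differed by 1.09 ± 0.21 (adjusted p = 0.0115) in non-LRCs and by -0.48 ± 0.21 (adjusted p = 0.326) in LRCs. Actn1, the crosslinker alpha-actinin, differed by 1.11 ± 0.22 (adjusted p = 0.0135) in non-LRCs and by 0.00 ± 0.22 (adjusted p = 0.999) in LRCs. The steps differed by 1.73 ± 0.30 (unadjusted p = 2.43e-05, adjusted p = 0.111) for Tpm1, by 1.97 ± 0.30 (unadjusted p = 5.63e-06, adjusted p = 0.0948) for Tpm2 and by 1.58 ± 0.30 (unadjusted p = 6.39e-05, adjusted p = 0.184) for Pfn2. With the array-set term 2 of the 4 stayed called in non-LRCs, Tpm1 and Actn1 (adjusted p = 0.00635 and 0.00207), while Tpm2 and Pfn2 were not (adjusted p = 0.0812 and 0.068). The loss of 1 array ended the calls of Pfn2 without SL non-LRC 1 and SL non-LRC 2 (highest adjusted p = 0.196), Tpm2 without SL non-LRC 1, SL non-LRC 2 and BL non-LRC 2 (highest adjusted p = 0.155) and Actn1 without SL non-LRC 1 and SL non-LRC 2 (highest adjusted p = 0.173).

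**Figure D5:**
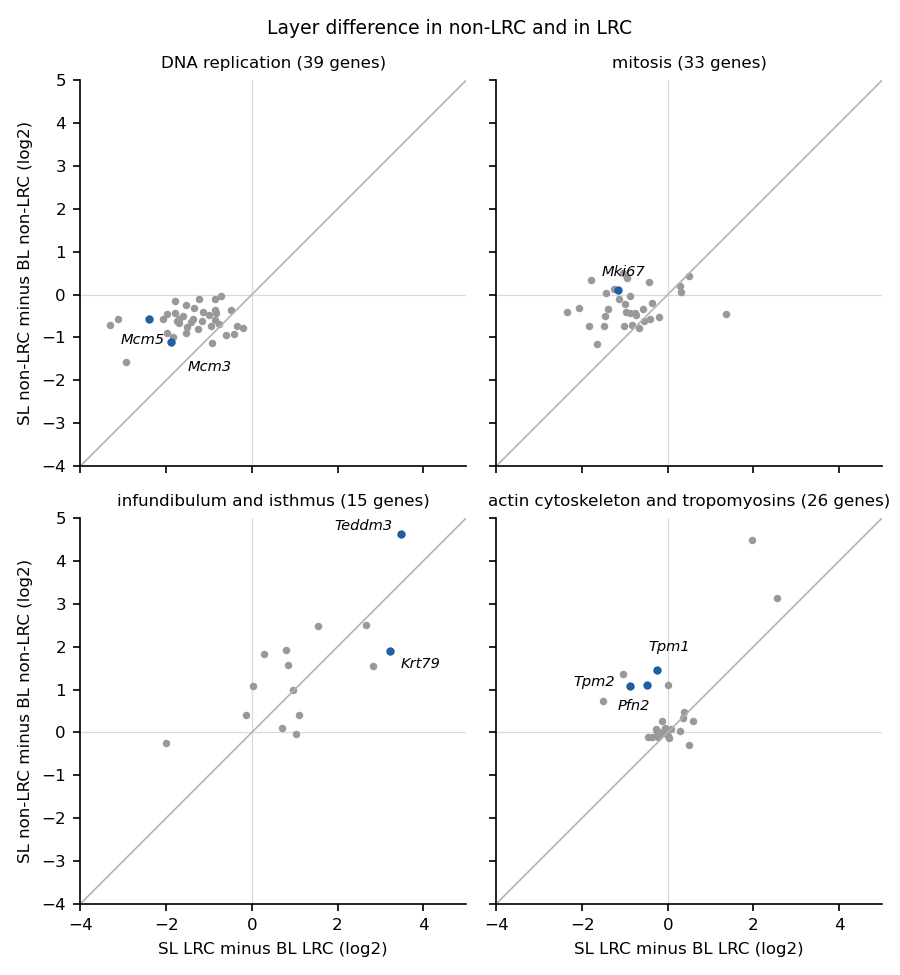
Log2 layer difference of each gene in non-LRCs (SL non-LRC minus BL non-LRC, vertical) and in LRCs (SL LRC minus BL LRC, horizontal) for 4 gene lists; each point is a gene, named genes are blue, and the diagonal marks equal differences. Replication genes lie below 0 on both axes, mostly above the diagonal, infundibulum genes lie mostly above 0 on both, and Tpm1, Tpm2 and Pfn2 lie above 0 in non-LRCs and below 0 in LRCs.

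Other genes with small interaction p among the called ones differed in size. Crabp2 rose in both kinds of cell, by 3.75 in non-LRCs and by 2.03 in LRCs, steps that differed by 1.71 ± 0.34 (unadjusted p = 0.000101, adjusted p = 0.184). For 2610316D01Rik 1 of 2 SL non-LRC arrays and none of the BL non-LRC arrays was above the floor, so no size is given. Its call was lost without each array in turn. Zc2hc1c was at background in SL non-LRCs and its step in LRCs was 0.55. Of the 15 infundibulum genes 9 rose in non-LRCs and 9 in LRCs, with Krt79 differing by 1.89 in non-LRCs and 3.23 in LRCs. Of the 31 envelope genes 6 rose in non-LRCs and 7 in LRCs. Sprr1a differed by 3.50 in non-LRCs and 2.51 in LRCs, and Klk7 by 3.82 in non-LRCs and 2.09 in LRCs. None of these differences of steps passed the test across all genes.

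Under the array-set term, with BL non-LRC 1 as the only BL array, and with each of the 5 arrays left out, 23 of the 94 called genes named here stayed called in all 7 fits. These were Sprr1a and Asprv1 of the envelope, the proteases and inhibitor Klk5, Klk7 and Cst6, the early differentiation genes Dsc1, Calml3, Endou, Ly6g6c and Sbsn, the follicle and stress keratins Krt6a, Krt17 and Krt79, the transcription factors Lhx2, Sox9 and Ovol1, and Crabp2, Teddm3, Atp6v1c2, Slc43a2, Cdkn1a, Epcam and Tpm1. With the mean of all probe sets of a gene, Krt17, Sox9 and Tpm1 were not called (adjusted p = 0.283, 0.389 and 0.301).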

How the data were processed

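Microarray intensity values deposited by the authors were used, 1 table of 12 arrays with 45101 probe sets. By recomputation, the authors' scaling gave each array a 2% trimmed mean of 500.0; the summarisation software is not given in the sources used here. Per the labels, RNA amplification used NuGEN's Ovation Pico WTA kit and biotin labelling its Encore module, steps that can enlarge the spread of faint transcripts. Values run from 1.0 to 71928.6 on a linear scale, so log2 was taken here of the deposited values with nothing added.

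Probe sets with 1 gene in the platform annotation were kept (34945), and each gene was represented by the probe set of highest mean over all 12 arrays, giving 18193 genes. 932 probe sets with several genes and 9160 with none were left out. The samples were grouped by their titles. Limma 3.58.1 in R 4.3.3 fitted 5 group means to all 12 arrays, so that all groups share 1 estimate of the spread, allowing for a mean-variance trend, with adjustment by Benjamini-Hochberg over all genes at 0.05. The code was tested on simulated data. Where a group was never above the floor, "at least" compares the brighter group's mean with the floor-limited mean of the dimmer one. The number of arrays limits the precision.

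The genes and the 33 lists, written from general knowledge of skin, were chosen with earlier results of these data known. Named genes are the 12 largest differences in each direction among called, non-overlapping genes, up to 6 members of smallest p per described list, a fixed set of layer and lineage markers, and up to 6 called genes of smallest interaction p; Mcm5, Pecam1 and Spink5 and the remaining called list members were added after their values were seen. Array sets were read from the BioB control, known from earlier results. Promoters are RefSeq's, assembly GRCm38.p6. Alternatives were the array-set term, BL non-LRC 1 as the only BL array, 5 arrays alone, quantile and median scaling, dim-gene filters, an offset of 16, other probe set choices, no trend, a replicate block, and leaving out each array.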

Additional observations from a re-analysis of the deposited data

Results flagged for a closer look

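Tpm2 and Pfn2 moved in opposite directions in the non-LRC and LRC comparisons, each array of the SL groups lying on the opposite side of the BL arrays. For Tpm2 the layer difference in non-LRCs minus that in LRCs was 1.97, a test of which gave an adjusted p of 0.0948. Its values were 6104 and 6879.8 on the SL non-LRC arrays, against 3454, 2517 and 3317 on the BL non-LRC arrays, and 638 and 863 on the SL LRC arrays, against 1687, 1411 and 1091 on the BL LRC arrays. For Pfn2 the difference of the layer steps was 1.58, with an adjusted p of 0.184. Its values were 9960.0 and 8251 on the SL non-LRC arrays, against 5342.5, 4385 and 3263 on the BL non-LRC arrays, and 2521.5 and 4046 on the SL LRC arrays, against 4541, 4638 and 4205 on the BL LRC arrays. Both tests miss the threshold across all genes. The SL non-LRC arrays are in the low-BioB set and the SL LRC arrays in the high one, so label and array set cannot be told apart in that layer.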

How the results depend on the processing

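Under all 17 alternatives the 94 called genes named above kept their sign, and the call was kept for 59 with the array set as a term, 51 with BL non-LRC 1 as the only BL array, 41 in a fit of the 5 arrays alone, 15 without the mean-variance trend, 66 with the mean of all probe sets of a gene and 84 to 93 of those tested with other scalings, floors, offsets, filters or the replicate block. The 212 genes higher in SL non-LRCs became 137 with BL non-LRC 1 as the only BL array, 89 with the 5 arrays alone and 40 without the trend, and 47 to 237 with 1 array left out, fewest without SL non-LRC 1. The 71 lower genes became 44, 16 and 4 under the same settings, 24 to 121 with 1 array left out, and 120 with the replicate number as a block, which gave 267 higher. Same-numbered SL and BL arrays had deviations that correlated at r = 0.01 and -0.04 over 2 shared numbers. With 2 SL arrays their deviations mirror each other, so these values cannot show whether same-numbered arrays share an animal or a sort. The block changed 9 of the 94 named calls. Without the trend, the LRC comparison gave 26 higher and 39 lower, and 15 genes instead of 139 were called the same way in both; with 1 array left out the last count was 46 to 177. The difference of layer steps, 0 genes in the report, gave 5 with the array-set term, 3 of them Y-linked (Eif2s3y, Kdm5d and Uty) beside Glul and Shmt1; 4 with values raised to the floor and 4 with the replicate block (Ctsl, Mcm5, Tpm1 and Tpm2 in each); 2 with the mean of probe sets (Pfn2 and Tpm2); 2 without the trend (Gm15408 and Peg10); and 0 to 6 with 1 array left out. Among genes that were not called, signs turned for Krt1 (0.07 with the array-set term, 0.02 with BL non-LRC 1 as the only BL array, -0.35 to 0.17 with 1 array left out), Krt14 (0.03 with BL non-LRC 1 as the only BL array, 0.10 after quantile normalization, -0.07 to 0.05 with 1 array left out), Notch1 (-0.03 and -0.02 after quantile and median scaling, -0.29 to 0.18 with 1 array left out), Klf4 (-0.09 to 0.21 with 1 array left out), Slc1a3 (0.11 with BL non-LRC 1 as the only BL array) and Aspm (-0.53 with the mean of probe sets, -0.22 to 0.47 with 1 array left out). The fits that leave arrays out rest on fewer arrays, and the cause of their shifts and of the others was not tested. For called genes the sign could not turn in those fits, as the SL and BL non-LRC arrays did not overlap. A fit that leaves 1 SL or 1 BL array takes that array to vary like the other groups. Genes below the floor on every array of a group have only bounds, the fitted size of those below it on some arrays depends on background values, and 26 of the 157 called genes with several probe sets have 1 or more of opposite sign.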

Other observations

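Of 16 metallothionein and S100 genes none was called, with a median of -0.22. Arrays of the groups did not overlap for 7 of the 16, beside 26.7% of all genes. Mt2, a metal-binding metallothionein, had 11107 and 10508 on the SL non-LRC arrays, against 13669, 22167 and 17195 on the BL non-LRC arrays, a difference of -0.68 ± 0.17 (adjusted p = 0.0654). Elf5, an epithelial transcription factor, had 261 and 121 on the SL non-LRC arrays, against 6.4, 5.4 and 48 on the BL non-LRC arrays, with 1 of 3 BL arrays above the floor, and an adjusted p of 0.0504 just outside the threshold. Myl9, a myosin light chain of contractile cells, had 394 and 223 on the SL non-LRC arrays, against 87.2, 7.9 and 3.3 on the BL non-LRC arrays (adjusted p = 0.0665).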
